A study of Mus musculus with 6 samples.

Results

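The 10 genes described here are the core of the circadian clock and its best-known output: the activators *Bmal1* and *Clock*, the repressors *Per1*, *Per2*, *Per3*, *Cry1* and *Cry2*, the nuclear receptors *Nr1d1* and *Nr1d2*, and the output gene *Dbp*. They were chosen by name, as the core clock genes, and all 10 were among the 56748 genes of the deposited tables and among the 16605 tested after genes with low counts were set aside. RNA came from uteri of 3 control and 3 *Gp130* ecKO females, all labelled as taken at 1600 h on day 4 of pregnancy. This is shortly before the embryo attaches. The labels give the strain as C57BL/6, and the study's methods name the background as C57BL/6J. The *Gp130* ecKO females carried 1 *Ltf*-iCre allele and floxed *Gp130* on both chromosomes, so that deletion follows the activity of the *Ltf* locus, which is the uterine epithelium and also a subset of immune cells. Controls are labelled WT, and the study's methods describe them as floxed females without iCre or wildtype females. All were sexually mature and mated with fertile wildtype males. Values of the uteri are given below in the order of replicates 1, 2 and 3. The labels do not say whether each library is 1 female, so p-values measure the spread between these 6 samples. The mice were kept under equal hours of light and dark, but the time at which the lights came on is not given in the sources used here, and 1600 h could therefore not be placed within the light phase.

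In the clock of mammalian cells, BMAL1 and CLOCK bind E-box sequences as a pair and switch on the *Per*, *Cry*, *Nr1d* and *Dbp* genes. PER and CRY proteins return to the nucleus and inhibit the pair, while the REV-ERB receptors encoded by *Nr1d1* and *Nr1d2* repress *Bmal1*, *Clock* and *Cry1* through ROR elements. DBP and its relatives act on D-box sequences. In mouse peripheral tissues *Nr1d1* and *Dbp* transcripts peak before *Per2*, *Cry1* follows later, and *Bmal1* and *Clock* run opposite to *Nr1d1*, so the relative levels of these genes in 1 sample carry the time of its clock. The questions here were whether the uteri, which share 1 clock time, showed 1 pattern, and whether the pattern differed between control and *Gp130* ecKO.

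The elements through which these genes regulate each other were searched in the 250 bases before the start of each gene's canonical transcript on GRCm39, on both strands. The E-box CACGTG stood in 6.26% of the 21770 promoters of protein-coding genes and in 2 of the 10 clock genes, *Per1* and *Cry1*. The variant CACGTT, read as AACGTG on the other strand, stood in 4.16% of promoters and in *Cry1*, *Cry2* and *Nr1d1*. A D-box, searched as TTATGTAA or TTACGTAA, stood in 0.937% of promoters and in *Per2* and *Per3*. A ROR element, searched as TAGGTCA or TGGGTCA, stood in 5.27% of promoters and in *Dbp*, where both matches lie in the last exon of the neighbouring gene *Car11*. The cyclic AMP response element TGACGTCA (1.69% of promoters) and the STAT site TTCNNNGAA (7.70% of promoters) had no match in any of the 10 windows. The stretches that hold E-box and D-box matches are printed to show the letters that activators and DBP are known to recognise. They are written on the gene's strand with the matches in capitals, and a match is a description of the letters only.
*Per1*, chr11:68989226-68989267, plus strand: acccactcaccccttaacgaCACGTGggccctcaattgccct
*Cry1*, chr10:85020971-85020999, minus strand: gaAACGTGaggtgccggtggtCACGTGgg
*Cry2*, chr2:92264555-92264600, minus strand: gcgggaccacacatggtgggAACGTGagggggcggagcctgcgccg
*Nr1d1*, chr11:98666206-98666251, minus strand: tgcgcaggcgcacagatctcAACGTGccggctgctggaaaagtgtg
*Per2*, chr1:91387144-91387191, minus strand: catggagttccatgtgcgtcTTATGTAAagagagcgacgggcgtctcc
*Per3*, chr4:151129253-151129347, minus strand: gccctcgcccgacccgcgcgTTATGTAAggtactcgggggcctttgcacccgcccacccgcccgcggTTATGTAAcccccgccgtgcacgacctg
The *Cry1* stretch also lies in an exon of another *Cry1* transcript, and the *Cry2*, *Nr1d1* and *Per3* stretches meet exons of non-coding RNA genes.

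Expected counts summed to between 13960748, in control 3, and 25906443, in control 2, and every clock gene had at least 109 counts in every uterus. The quasi-likelihood test of edgeR called 26 of all tested genes at a false discovery rate (FDR) under 0.05, which is 0.157%, and 4151 had an unadjusted p under 0.05. The 26 became 1 to 928 with single uteri left out, the 928 without control 2. The median log2 fold change of all tested genes was −0.05. *Il6st*, the gene for Gp130, had 631, 678 and 452 CPM across the controls against 388, 350 and 362 CPM across the *Gp130* ecKO uteri (log2 fold change of −0.68 at an adjusted p = 0.120, edgeR), in RNA that also held stroma and muscle. CPM are counts relative to the library size as scaled by TMM. No gene of the marker lists for epithelium, stroma, endothelium and smooth muscle was at 0 in all uteri. The summed CPM of 7 epithelial markers ranged from 2181 to 3775 in the control and from 5256 to 6870 in *Gp130* ecKO, and that of 6 stromal markers from 1665 to 2033 and from 914 to 1347. The epithelial markers did not move alike. *Epcam* (log2 fold change of −0.19) and *Krt18* (0.74) overlapped between the groups, while *Krt19* (2.19) and *Krt8* (1.32) did not. The paper reports higher KRT8 and CDH1 protein in the *Gp130* ecKO epithelium. The sum of 5 endothelial markers ranged from 400 to 846 in the control and from 191 to 332 in *Gp130* ecKO, and that of 4 neutrophil markers from 5.07 to 8.06 and from 0.588 to 1.70. Of 3 oviduct markers, *Ovgp1* passed the FDR threshold, with 47.9 to 85.3 CPM in the control and 552 to 1193 CPM in *Gp130* ecKO. *Foxj1* was at most 3.32 CPM and overlapped between the groups (log2 fold change of 2.11, unadjusted p = 0.0295 from edgeR), and *Pax8*, at 89.9 to 172 CPM, also overlapped. In bulk RNA, fewer cells of a type and less RNA per cell cannot be told apart. The part of these shifts in the values below was not tested.

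None of the 10 clock genes passed the FDR threshold in edgeR's quasi-likelihood test, and none had an unadjusted p under 0.05, a level that 25.0% of all tested genes reached. The same 2 counts of 0 were given by edgeR's exact and likelihood ratio tests, DESeq2 and limma voom. In none of the 10 were the groups separated, whereas in 31.3% of all tested genes the CPM of the 3 control and the 3 *Gp130* ecKO uteri did not overlap. By fold change 4 genes were higher and 6 lower, and the largest absolute log2 fold change was 0.52. The median absolute log2 fold change was 0.39 for the 10 genes and 0.43 for all tested genes, so the 10 genes did not stand out in size. Without control 3, *Nr1d1* (log2 fold change of −0.85) and *Per2* (0.64) had an unadjusted p under 0.05, as did 19.1% of all tested genes, and without *Gp130* ecKO 3 so did *Cry2* (0.72), with 22.2% of all tested genes.

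**Figure D1:**
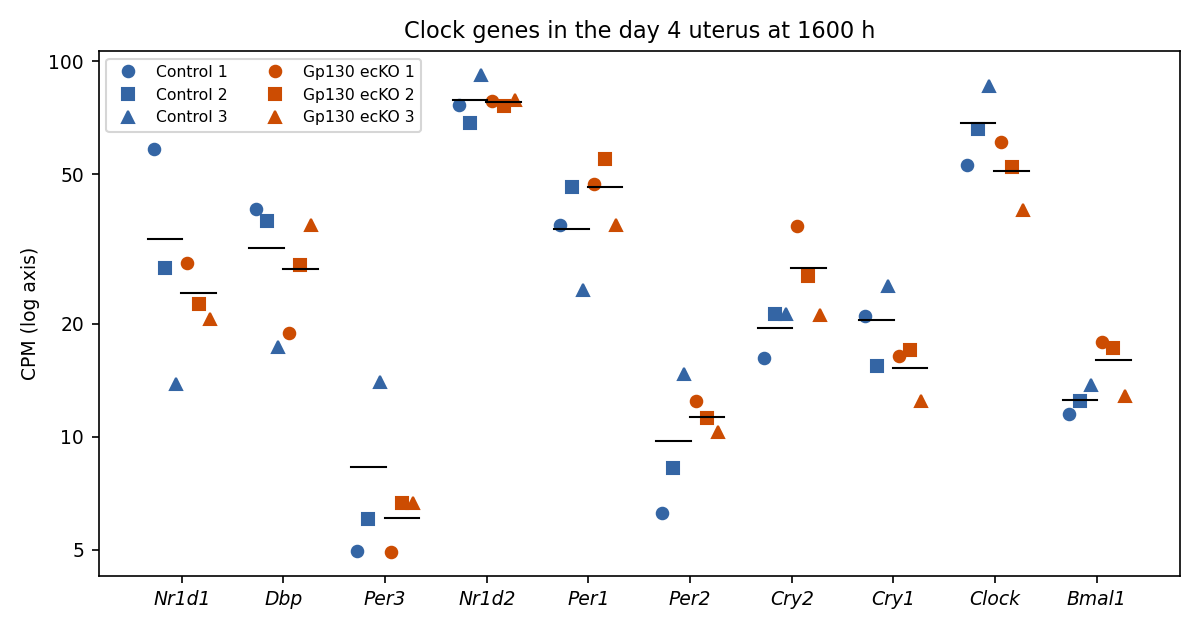
Level of each clock gene in each uterus, as CPM on a log axis. Blue marks the 3 control and orange the 3 Gp130 ecKO uteri, the symbol gives the replicate number, and bars are group means. The groups overlap for all 10 genes, and the widest spread is that of Nr1d1 in the control, from 13.8 to 58.5 CPM.

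*Bmal1* (ENSMUSG00000055116, chromosome 7, 112806152 to 112914735), the activator without which the clock stops, had 11.5, 12.4 and 13.7 CPM across the controls against 17.9, 17.2 and 12.8 CPM across the *Gp130* ecKO uteri. *Gp130* ecKO 3 lay below control 3, and the other *Gp130* ecKO uteri lay above all controls. The log2 fold change was 0.35 (95% interval −0.19 to 0.89, adjusted p = 0.373 from edgeR). *Clock* (ENSMUSG00000029238, chromosome 5, 76342860 to 76452846), its partner, had 53.0, 66.0 and 86.0 CPM across the controls against 60.8, 52.2 and 40.1 CPM across the *Gp130* ecKO uteri. Control 3 was the highest and *Gp130* ecKO 3 the lowest, and the groups overlapped between 53.0 and 60.8 CPM. Its log2 fold change was −0.42 (95% interval −0.98 to 0.14, adjusted p = 0.306 from edgeR).

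Among the *Per* genes, *Per1* (ENSMUSG00000020893, chromosome 11, 68986035 to 69002300), which is also induced by hormones and other acute signals, had 36.6, 46.3 and 24.6 CPM across the controls against 47.1, 55.0 and 36.5 CPM across the *Gp130* ecKO uteri. Control 3 had the lowest value, and *Gp130* ecKO 3 lay just under control 1. The log2 fold change was 0.37 (95% interval −0.27 to 1.00, adjusted p = 0.422 from edgeR). *Per2* (ENSMUSG00000055866, chromosome 1, 91343700 to 91387069), a repressor of the same complex, had 6.27, 8.25 and 14.7 CPM across the controls against 12.4, 11.2 and 10.3 CPM across the *Gp130* ecKO uteri. The *Gp130* ecKO uteri were close together and lay inside the control range. Its log2 fold change was 0.22 (95% interval −0.59 to 1.04, adjusted p = 0.711 from edgeR). *Per3* (ENSMUSG00000028957, chromosome 4, 151081373 to 151129140), which is not needed for the rhythm itself, had 4.94, 6.02 and 14.0 CPM across the controls against 4.93, 6.65 and 6.67 CPM across the *Gp130* ecKO uteri. Control 3 stood apart from the other 5 uteri, and the log2 fold change of −0.43 (95% interval −1.45 to 0.58) became 0.15 without control 3.

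The *Cry* genes encode the strongest repressors of the loop. *Cry1* (ENSMUSG00000020038, chromosome 10, 84967560 to 85021252) had 20.9, 15.4 and 25.2 CPM across the controls against 16.4, 17.0 and 12.4 CPM across the *Gp130* ecKO uteri. The value of control 2 was below those of *Gp130* ecKO 1 and 2, and both other controls were above all of them. The log2 fold change was −0.43 (95% interval −1.03 to 0.17, adjusted p = 0.332 from edgeR). *Cry2* (ENSMUSG00000068742, chromosome 2, 92233894 to 92264474) had 16.2, 21.2 and 21.2 CPM across the controls against 36.4, 26.7 and 21.1 CPM across the *Gp130* ecKO uteri. *Gp130* ecKO 3 was level with controls 2 and 3, and *Gp130* ecKO 1 was the highest. *Cry2* had the lowest p of the 10 genes, with a log2 fold change of 0.52 (95% interval −0.07 to 1.12, unadjusted p = 0.0756, adjusted p = 0.242 from edgeR).

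*Nr1d1* (ENSMUSG00000020889, chromosome 11, 98658752 to 98666188), which encodes REV-ERBα, had 58.5, 28.2 and 13.8 CPM across the controls against 29.0, 22.6 and 20.6 CPM across the *Gp130* ecKO uteri. The highest and the lowest of the 6 uteri were both controls, 4.24-fold apart, and the *Gp130* ecKO uteri were within 1.41-fold of each other. The log2 fold change was −0.48 (95% interval −1.58 to 0.62, adjusted p = 0.540 from edgeR), and 0.21 without control 1. In the annotation, 52.8% of the exonic bases of *Nr1d1* lie opposite exons of *Thra* and a non-coding gene. The library kit keeps strand, but whether strand was used in counting is not stated. *Thra* had 77.5, 71.0 and 42.3 CPM across the controls against 71.0, 51.5 and 53.6 CPM across the *Gp130* ecKO uteri, and its part in the *Nr1d1* values was not tested. *Nr1d2* (ENSMUSG00000021775, chromosome 14, 4230545 to 4266624), for REV-ERBβ, was the steadiest of the 10 genes, with 76.3, 68.3 and 92.1 CPM across the controls against 78.4, 76.2 and 78.9 CPM across the *Gp130* ecKO uteri. All *Gp130* ecKO values lay between those of controls 2 and 3, with a log2 fold change of −0.02 (95% interval −0.40 to 0.36, adjusted p = 0.946 from edgeR).

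*Dbp* (ENSMUSG00000059824, chromosome 7, 45354512 to 45359627), the output gene, had 40.5, 37.6 and 17.3 CPM across the controls against 18.9, 28.7 and 36.5 CPM across the *Gp130* ecKO uteri. Each group held both high and low uteri. The log2 fold change was −0.18 (95% interval −1.05 to 0.68, adjusted p = 0.775 from edgeR), and it was 0.05 without control 1 and 0.04 without *Gp130* ecKO 1. Exons of *Sphk2* lie opposite 15.5% of the exonic bases of *Dbp*. The labels give uterus as the tissue, and the series' design text speaks of endometrium. The 5 smooth muscle markers *Myh11*, *Des*, *Cnn1*, *Actg2* and *Acta2* summed to 1919, 1407 and 448 CPM across the controls and to 339, 654 and 2209 CPM in *Gp130* ecKO 1, 2 and 3. None of the 5 had an unadjusted p under 0.05 between the groups. The 3 uteri with the highest *Dbp* were the 3 with the highest smooth muscle sum, and the same held for the 3 lowest. *Nr1d1* did not follow that division, since *Gp130* ecKO 3 had the highest smooth muscle sum and the second lowest *Nr1d1*. How much of the spread of *Dbp* goes with the amount of muscle in a sample was not tested.

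**Figure D2:**
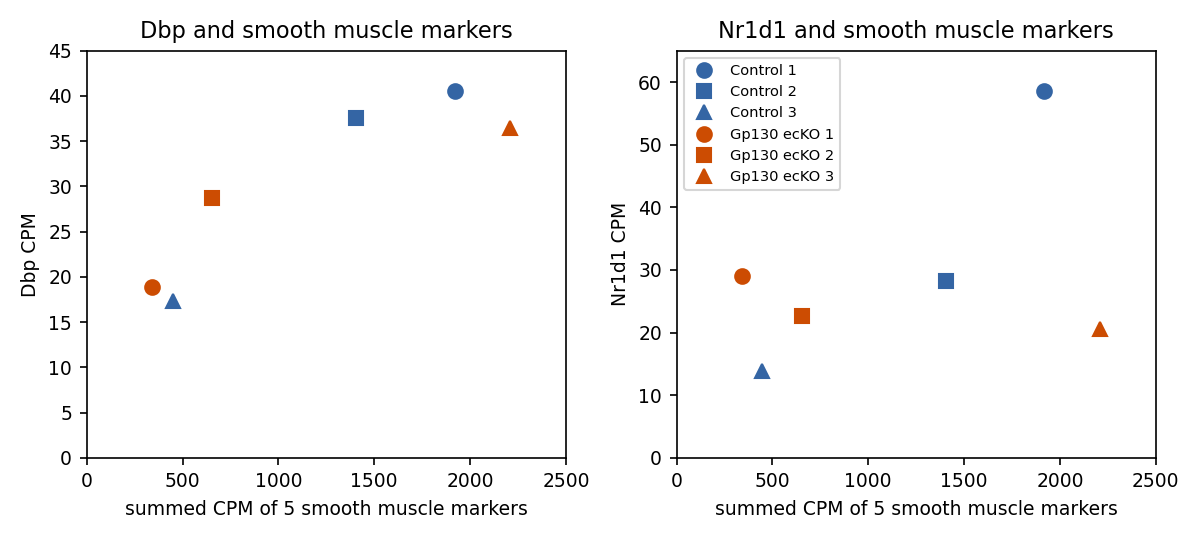
Dbp (left) and Nr1d1 (right), in CPM, against the summed CPM of 5 smooth muscle markers in each uterus. Blue marks control and orange Gp130 ecKO uteri, and the symbol gives the replicate number. The 3 uteri with a muscle sum of 1407 or more are the 3 with the highest Dbp.

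Compared per length, as the TPM deposited by the authors, *Dbp* was the most abundant with 29.7 ± 9.14 TPM (SD, n = 6 uteri of both groups), followed by *Nr1d2* with 23.6 ± 3.54 and *Nr1d1* with 14.5 ± 7.01. *Per1* had 12.8 ± 4.30, *Clock* 9.47 ± 2.86, *Cry2* 8.38 ± 2.88, *Cry1* 8.34 ± 2.62 and *Bmal1* 7.41 ± 2.09 TPM. *Per2* with 2.48 ± 0.821 and *Per3* with 1.90 ± 1.13 TPM came last. Neighbours in this order overlapped over the uteri, except that *Bmal1* (lowest 5.13 TPM) was above *Per2* (highest 3.55 TPM) in every uterus. *Dbp* ranked first in 4 uteri and second in the other two. *Nr1d1* ranked 2nd in control 1 and 7th in control 3, and between 3rd and 4th in the other uteri. RSEM weights gene length by the transcripts it finds, so that TPM of a gene also moves with that estimate.

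The 10 genes differed more among controls than among *Gp130* ecKO uteri. For 8 of them the SD of log2 CPM was larger in the control than in *Gp130* ecKO, which held for 57.2% of all tested genes, and the exceptions were *Bmal1* and *Cry2*. The median SD of the 10 genes was 0.40 in the control and 0.26 in *Gp130* ecKO, against 0.32 and 0.27 for all tested genes. *Nr1d1* had an SD of 1.02 in the control, above 94.5% of all tested genes, and 0.25 in *Gp130* ecKO, above 45.6% of them. *Per3* (0.75 and 0.23), *Dbp* (0.67 and 0.47) and *Per2* (0.60 and 0.13) followed. *Nr1d2* had the smallest SD in *Gp130* ecKO, 0.03, with only 0.867% of tested genes below it. The difference in spread between the groups was not tested.

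Control 3 lay at one end for 8 of the 10 genes. It had the lowest *Nr1d1*, *Dbp* and *Per1* of all 6 uteri and the highest *Per2*, *Per3*, *Cry1*, *Clock* and *Nr1d2*. Its values were, relative to the mean over the uteri and on the log2 scale, −0.89 for *Nr1d1*, −0.70 for *Dbp*, −0.68 for *Per1*, 0.51 for *Per2* and 1.00 for *Per3*. Control 1 went the other way for 4 of these, with 1.15 for *Nr1d1*, 0.50 for *Dbp*, −0.66 for *Per2* and −0.41 for *Per3*. It also did for *Clock* (−0.13 against 0.56) and *Nr1d2* (−0.03 against 0.24). Controls 1 and 3 lay on the same side for *Per1* (−0.12 and −0.68) and *Cry1* (0.26 and 0.52). So they did for *Bmal1* (−0.28 and −0.03) and *Cry2* (−0.50 and −0.12). Control 2 and the 3 *Gp130* ecKO uteri lay between controls 1 and 3 for *Nr1d1*, *Dbp* and *Per2*, and for *Per3* all but *Gp130* ecKO 1, which was level with control 1. The *Dbp* of *Gp130* ecKO 1 (−0.58) was close to that of control 3. Control 3 was also the library with the fewest counts, and it had a low smooth muscle sum (448 CPM). The part of either in its clock values was not tested.

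**Figure D3:**
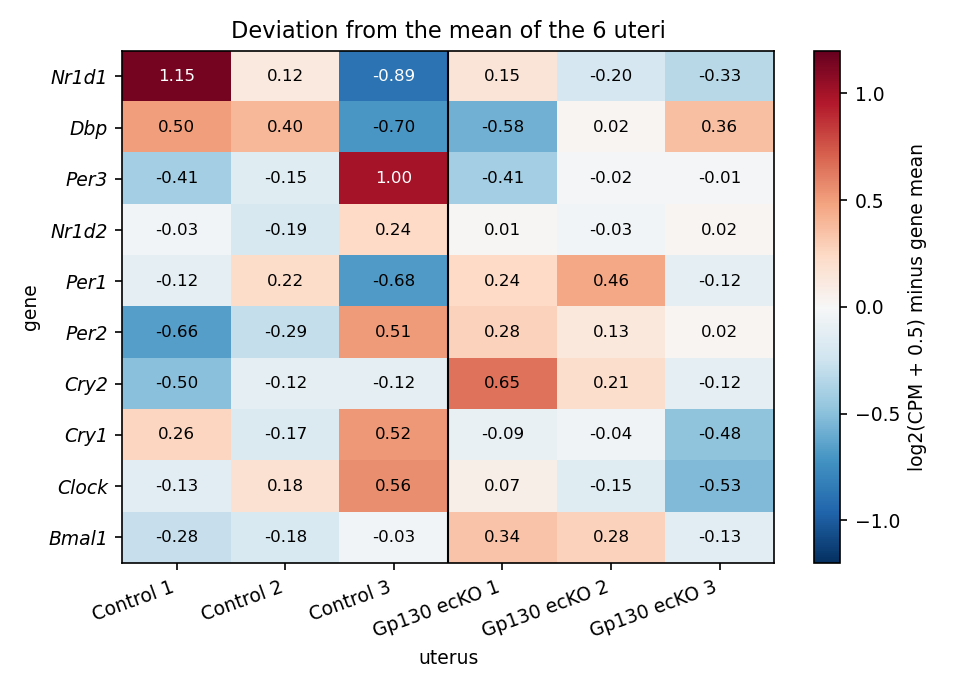
Deviation of each clock gene in each uterus from its mean over the 6 uteri, as log2(CPM + 0.5). Red is above and blue below the mean, and genes run roughly from those known to peak earlier in the day to Bmal1. Control 3 has low Nr1d1 (−0.89), Dbp (−0.70) and Per1 (−0.68) with high Per3 (1.00), and control 1 has high Nr1d1 (1.15) with low Per2 (−0.66).

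Ratios within a uterus do not depend on library size. Those of *Nr1d1* to *Per2* and to *Bmal1* had controls 1 and 3 as their extremes, which did not hold for every ratio of *Nr1d1*. These controls were also the extremes of *Nr1d1* itself, so the ratios are not independent of it. *Nr1d1* exceeded *Per2* in TPM by 20.5, 7.53 and 2.08 times in controls 1, 2 and 3, and by 5.17, 4.48 and 4.38 times in *Gp130* ecKO 1, 2 and 3. The controls spanned 9.89-fold and the *Gp130* ecKO uteri 1.18-fold, inside the control range. *Nr1d1* over *Bmal1*, the repressor over its target, was 5.36, 2.25 and 1.03 across the controls against 1.58, 1.29 and 1.61 across the *Gp130* ecKO uteri. *Dbp* over *Bmal1* was 7.03, 5.92 and 2.31 across the controls against 2.00, 3.23 and 5.99 across the *Gp130* ecKO uteri, spread about as widely in both groups.

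Of the 45 ratios between 2 of the 10 genes, 8 separated the groups without overlap, which is 17.8%, while 31.2% of all pairs of tested genes had such a ratio. *Clock* took part in 3 and *Cry1* in 4 of the 8, so that these ratios are not independent of each other. *Cry1* over *Cry2* was 1.71, 0.936 and 1.69 across the controls against 0.594, 0.816 and 0.776 across the *Gp130* ecKO uteri, so *Cry1* was above *Cry2* in controls 1 and 3 only. *Bmal1* over *Clock* was 0.698, 0.643 and 0.510 across the controls against 0.943, 1.04 and 1.07 across the *Gp130* ecKO uteri. These ratios are described without a test.

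The other genes of the clock pathway were read from lists of 33 further genes, all of which were tested. None passed the FDR threshold in edgeR's quasi-likelihood test. At an unadjusted p under 0.05 there were 12, of which 4 were higher (12.1% of all tested genes were) and 8 lower (12.9% of all tested genes were). The groups did not overlap for 13, with 5 higher against 15.7% and 8 lower against 15.6% of all tested genes. The median log2 fold change of the 33 was −0.11. With DESeq2, which gave 13.9% of all genes an FDR under 0.05, 8 of the 33 passed that threshold: *Bmal2*, *Rorb*, *Tef*, *Nfil3*, *Bhlhe40*, *Gsk3b*, *Timeless* and *Tspan4*.

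*Nfil3*, the repressor that competes with DBP for D-box sites, had the largest absolute log2 fold change of the 33 in the main analysis, though not in every alternative. It had 149, 41.3 and 84.5 CPM across the controls against 15.6, 12.5 and 23.8 CPM across the *Gp130* ecKO uteri. Every *Gp130* ecKO uterus lay below every control, with a log2 fold change of −2.40 (SE 0.48, with an adjusted p = 0.0683 in the quasi-likelihood fit of edgeR). Under the 18 alternatives the adjusted p lay between 6.96e-05, with DESeq2, and 0.226, without *Gp130* ecKO 1, and it was 0.0164 without control 2. Of 5 STAT3 target genes, 5 were lower in *Gp130* ecKO at an unadjusted p under 0.05 (12.9% of all tested genes). They were also without overlap (15.6%), and 1, *Bcl3*, passed the FDR threshold. The list was chosen with earlier results of these data known. It holds *Socs3*, which the paper reports as lowered in these data, and *Junb*, also among the immediate early genes below. The counts are therefore not independent evidence. The part of the STAT3 target genes in the *Nfil3* values was not tested. Beside *Nfil3*, the other genes of its family took no common direction. *Tef* had 58.0, 60.7 and 49.1 CPM across the controls against 80.6, 83.2 and 75.5 CPM across the *Gp130* ecKO uteri (log2 fold change of 0.51 at an adjusted p = 0.117, edgeR), and *Hlf* had a log2 fold change of −0.54 with overlapping groups.

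Among the activators, *Npas2*, which can stand in for *Clock*, had 137, 46.8 and 64.9 CPM across the controls against 24.8, 57.5 and 23.3 CPM across the *Gp130* ecKO uteri. The groups overlapped through control 2 and *Gp130* ecKO 2 (log2 fold change of −1.24 at an adjusted p = 0.179, edgeR), and the log2 fold change was −0.63 without control 1. *Bmal2*, the rarer relative of *Bmal1*, had 1.13, 1.27 and 7.27 CPM across the controls against 0.543, 0.731 and 0.539 CPM across the *Gp130* ecKO uteri, and its log2 fold change of −2.34 was −0.98 without control 3.

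*Rora* and *Rorb* encode receptors that activate through the elements that REV-ERB proteins repress. *Rora* had 27.9, 22.5 and 37.3 CPM across the controls against 19.0, 20.2 and 11.2 CPM across the *Gp130* ecKO uteri, with no overlap (log2 fold change of −0.80 at an adjusted p = 0.162, edgeR). *Rorb* had 12.1, 13.2 and 25.3 CPM across the controls against 5.79, 9.27 and 6.51 CPM across the *Gp130* ecKO uteri, also without overlap (log2 fold change of −1.22 at an adjusted p = 0.115, edgeR).

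Of the E-box repressors outside the *Per* and *Cry* families, *Bhlhe40* (DEC1) had 36.7, 36.7 and 43.4 CPM across the controls against 62.1, 57.6 and 51.2 CPM across the *Gp130* ecKO uteri, with no overlap (log2 fold change of 0.55 at an adjusted p = 0.115, edgeR). *Bhlhe41* (DEC2) was scarce, with means of 2.53 CPM in the control and 1.19 CPM in *Gp130* ecKO, and its groups, counted above as not overlapping, met within rounding at 1.62 CPM in control 2 and *Gp130* ecKO 2. *Ciart*, also scarce, had means of 1.39 and 1.23 CPM. *Csnk1d* and *Csnk1e*, the kinases that set the stability of PER, had log2 fold changes of 0.05 and −0.32 with overlapping groups. *Gsk3b*, another clock kinase, had 85.0, 145 and 99.5 CPM across the controls against 185, 221 and 162 CPM across the *Gp130* ecKO uteri (log2 fold change of 0.78 at an adjusted p = 0.117, edgeR). *Csnk2a1* and *Btrc* were slightly higher in every *Gp130* ecKO uterus than in every control, with log2 fold changes of 0.14 and 0.48. Of the 75-base stretches of *Csnk2a1*, 36.8% also occur in other genes, so its counts are less certain.

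Of the 12 outputs and accessory genes, 3 had an unadjusted p under 0.05, all lower in *Gp130* ecKO, beside 25.0% of all tested genes in either direction. *Wee1*, a cell cycle kinase under E-box control, had a log2 fold change of 0.05 (95% interval −0.39 to 0.50), *Nampt* one of −0.34 and *Usp2* one of −0.46. *Tspan4* reached at most 21.1 CPM in *Gp130* ecKO and was above that in every control, with a log2 fold change of −1.43 (adjusted p = 0.0826 from edgeR). *Timeless* and *Tipin*, whose proteins also work as a pair at the DNA replication fork, had log2 fold changes of −1.52 (adjusted p = 0.0934 from edgeR) and −1.03 (adjusted p = 0.136), again without overlap.

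**Figure D4:**
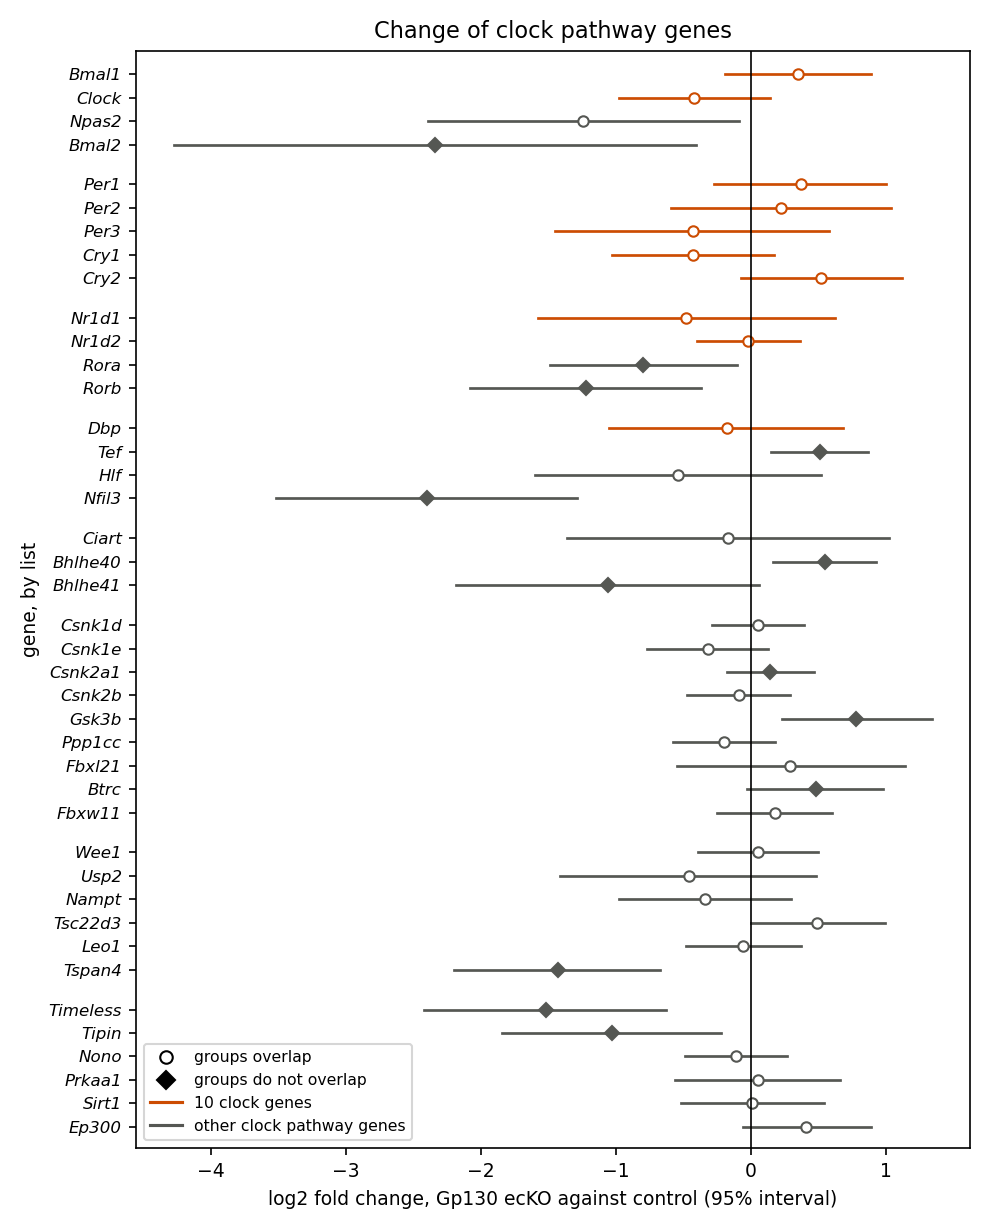
Log2 fold change of clock pathway genes, Gp130 ecKO against control, with 95% intervals from edgeR's quasi-likelihood fit. Orange marks the 10 clock genes and grey other genes of the pathway, and filled diamonds are genes whose groups do not overlap. The intervals of all 10 clock genes include 0, while that of Nfil3 lies wholly below 0, from −3.52 to −1.29.

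Signals from outside the loop that are known to reach *Per1* were read from 2 short lists. Of 10 immediate early genes, 8 were lower in *Gp130* ecKO at an unadjusted p under 0.05 (12.9% of all tested genes) and without overlap (15.6%), and none passed the FDR threshold in edgeR's quasi-likelihood test. The groups overlapped for *Jun* (log2 fold change of 0.66) and *Dusp1* (−0.13) of this list. The mean of *Per1* was higher in *Gp130* ecKO, with overlapping groups. Of 6 genes induced by glucocorticoids, *Per1* among them, 1, *Sgk1*, was higher at an unadjusted p under 0.05 (12.1% of all tested genes), and the median log2 fold change was 0.61. *Klf9* lay the other way, lower in every *Gp130* ecKO uterus than in every control (log2 fold change of −0.37). *Tsc22d3*, a glucocorticoid-induced gene that is also rhythmic in many tissues, had 159, 184 and 121 CPM across the controls against 252, 219 and 182 CPM across the *Gp130* ecKO uteri, with a log2 fold change of 0.49 (adjusted p = 0.203 from edgeR). The part of such signals in the *Per1* values was not tested.

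A phase index was formed for each uterus as the mean log2(TPM + 0.5) of 10 genes driven through E-boxes and D-boxes, *Per1*, *Per2*, *Per3*, *Nr1d1*, *Nr1d2*, *Dbp*, *Tef*, *Hlf*, *Ciart* and *Bhlhe41*, minus that of *Bmal1*, *Clock*, *Npas2*, *Cry1* and *Nfil3*. It was −1.58, −0.88 and −1.61 across the controls against −0.87, −0.67 and −0.43 across the *Gp130* ecKO uteri. The group means differed by 0.70. Formed from the clock genes of the 10 alone, it was 0.37, 0.26 and −0.31 across the controls against −0.04, 0.15 and 0.54 across the *Gp130* ecKO uteri, and the means differed by 0.11, so the difference of the wider index came with the genes outside the 10, among them *Nfil3* and *Npas2*.

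Profiles over the 6 uteri were compared with all 11857 tested genes outside the 10 that had a mean of at least 5 CPM, by the root mean square difference of log2(CPM + 0.5) after each gene's own mean was removed. The genes nearest to *Dbp* were *Aldh1b1*, *Ppp1r12b*, *Fah*, *Cnp* and *Rab13*, with differences of 0.133 to 0.155 against a median of 0.592 over all genes. *Aldh1b1*, the nearest, had 8.5, 8.6 and 3.6 CPM across the controls against 5.2, 6.42 and 8.25 CPM across the *Gp130* ecKO uteri. *Ppp1r12b*, the next, had 46.6, 46.0 and 21.1 CPM across the controls against 18.9, 30.3 and 49.5 CPM across the *Gp130* ecKO uteri. Those nearest to *Bmal1* were *Pkn2*, *Lrig2*, *Heatr6*, *Hmgxb3* and *Nup205*, with differences of 0.044 to 0.051 against a median of 0.396, and none of the 5 is in the clock lists.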

How the data were processed

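Uterine RNA of 3 control and 3 *Gp130* ecKO samples was sequenced by the authors as 75-base single reads, after poly(A) selection with a kit that keeps strand. Per the submitters' processing notes and the study's methods, reads were trimmed with fastp 0.23.2, mapped to GRCm39 with STAR 2.7.10a and counted with RSEM 1.3.3. The deposited expected counts are not normalized, the deposited TPM also take account of transcript length and of depth, and the deposited FPKM were not used. The annotation version and strand setting of the counting are not given in the sources used here.

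After rounding of the expected counts, edgeR 4.0.16 was run under R 4.3.3 (filterByExpr, TMM, quasi-likelihood F test without the legacy setting, Benjamini-Hochberg over 16605 genes, FDR under 0.05). The F statistic gave each SE (fold change on the log2 scale over the root of F). Intervals are at 95%. Alternatives used DESeq2 1.42.0, limma 3.58.1, other scalings, filters and left-out uteri. For symbols, positions and upstream sequence, GENCODE M39 (GRCm39) was used, where 56017 of the 56748 identifiers were found. Named genes are the 10 clock genes, other clock genes with an unadjusted p under 0.05 or no overlap, and, for likeness to *Dbp* and *Bmal1*, the 5 nearest profiles each, and a few further genes of the lists were named after their values were seen. Members and lists were chosen with earlier results of these data known. Per-sample libraries were compared, and no pair within a group was nearly identical. Results of 2 genes of the lists are not reported here, though the counts over the lists hold them.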

Additional observations from a re-analysis of the deposited data

How the results depend on the processing

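The number of all genes with an FDR under 0.05 was 26 in the main analysis and depended on the test: 7 with the legacy quasi-likelihood form, 1492 with the exact test, 1578 with the likelihood ratio test, 2212 with DESeq2 and 105 without a filter. It ranged from 1 to 928 with each uterus left out in turn, the 928 without control 2. None of the 10 clock genes passed an FDR of 0.05 under any of the 18 alternatives, where their lowest adjusted p was 0.181. With each uterus left out, between 0 and 2 clock genes had an unadjusted p under 0.05 (*Nr1d1* and *Per2* without control 3, 19.1% of all tested genes; *Cry2* without *Gp130* ecKO 3, 22.2%), and between 0 and 3 did not overlap. The 3 were *Bmal1*, *Per2* and *Dbp* without control 3, where 40.1% of all tested genes did not overlap, and the other 3 *Bmal1*, *Per1* and *Cry2* without *Gp130* ecKO 3, where 45.9% did not.

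Of 180 log2 fold changes of the clock genes under the alternatives, 173 kept their sign and none passed an FDR of 0.05. With single uteri left out, *Per3* ranged from −0.67 to 0.15 (the latter without control 3), *Nr1d1* from −0.85 to 0.21 (without control 1), *Dbp* from −0.48 to 0.05 (without control 1) and *Nr1d2* from −0.08 to 0.10 (without control 3). The other 6 clock genes kept their sign, from 0.26 to 0.51 for *Bmal1*, −0.56 to −0.22 for *Clock*, 0.16 to 0.62 for *Per1*, 0.02 (without control 1) to 0.64 (without control 3) for *Per2*, −0.56 to −0.25 for *Cry1* and 0.30 to 0.72 for *Cry2*. *Nr1d2* was also 0.02 without a filter, and *Dbp* 0.04 without *Gp130* ecKO 1. The cause was not tested. The group difference of the phase index was 0.70, and 0.11 with the clock genes of the 10 alone, where *Tef*, *Hlf*, *Ciart*, *Bhlhe41*, *Npas2* and *Nfil3* are not in it.

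Control and *Gp130* ecKO libraries share the numbers 1 to 3, which nothing in the labels ties to a shared animal or day. For that reason the numbers were not read as pairs. Deviations from the group means correlated across genes, within these libraries, at 0.104, 0.069 and −0.196 for same-numbered pairs. Differently numbered pairs ranged from −0.311 to 0.22. Deviations from a mean of 3 libraries depend on each other, so these values cannot decide whether libraries were paired. With the replicate number as a block, 6 genes passed the FDR threshold and none of the clock genes did. *Per3* had 109 to 210 counts per uterus, and whether depth limited its values was not tested.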

Other observations

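*Dbp* and *Nfil3* encode an activator and a repressor of the same D-box sites. *Dbp* over *Nfil3* in TPM was 0.383, 1.34 and 0.275 across the controls against 1.77, 3.40 and 2.38 across the *Gp130* ecKO uteri. The groups did not overlap in this ratio or in *Nfil3* alone, while those of *Dbp* did. Of all pairs of tested genes, 31.2% had a ratio without overlap, and this ratio is not independent of *Nfil3*. *Npas2* over *Clock*, the alternative partners of BMAL1, was 5.71, 1.55 and 1.63 across the controls against 0.831, 2.50 and 1.37 across the *Gp130* ecKO uteri, so control 1 stood apart with more *Npas2* than the other uteri.

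*Rora* over *Nr1d1*, an activator over a repressor of the same elements, was 0.124, 0.198 and 0.692 across the controls against 0.190, 0.256 and 0.208 across the *Gp130* ecKO uteri. The extremes were controls 1 and 3, as for *Nr1d1* itself, so this ratio is not independent of *Nr1d1*.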
